A study of Mus musculus with 157 samples.

Results

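The genes described here encode the machinery that brings new secretory and membrane proteins into the endoplasmic reticulum (ER), trims their signal peptides, attaches N-glycans and passes them on towards the Golgi. They were chosen by name and role, not by a measured value of their own. Of 35 names, 34 matched a row among the 19600 genes of the count table, while Srp54a was not analysed here. Splenic B cells of C57BL/6Babr mice, 8 to 12 weeks old in the study's methods, were isolated with a B cell isolation kit and activated in culture with bacterial lipopolysaccharide (LPS, 10 µg/ml, 48 h). The 3 treatments were LPS alone, LPS followed by etoposide at 20 µM for 4 h (LPS+ET), and LPS+ET with the inhibitor KU55933 at 10 µM, added 1 h before etoposide after 47 h of LPS (LPS+ET+KU). Etoposide poisons topoisomerase II and breaks both DNA strands, and KU55933 inhibits ATM, the kinase that signals such breaks. All cultures, the controls included, had 100 µg/ml cycloheximide for 3 min to hold ribosomes on mRNA, and cytoplasmic extracts were spread over sucrose gradients.

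Each treatment had 4 gradients of 13 fractions, and every fraction was sequenced from the poly(A) end of its mRNAs. Fractions 4 to 7 held monosomes (an mRNA with 1 ribosome), 8 to 10 light polysomes and 11 to 16 heavy polysomes. The table's column names carry 4 codes, LUL15 to LUL18, each with 1 gradient of every treatment. What the codes stand for is not stated, and they are called pools here. Values of 4 gradients below are always in the order LUL15, LUL16, LUL17, LUL18. Because each mRNA gives its tag at the 3′ end, the CPM used here, a gene's counts scaled to the total of its library or gradient, were not divided by gene length. They are shares of that total, not numbers of mRNAs, and a gradient's sum weights its fractions by their depth. The paper reports identical RNA concentrations for the libraries of all fractions, but a range of RNA amounts taken. Library size was therefore not read as a measure of how much mRNA a fraction held.

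Proteins bound for secretion, for membranes or for the lumen of the ER begin with a hydrophobic signal, which the signal recognition particle (SRP) grasps as it leaves the ribosome. SRP docks on its receptor, the ribosome is handed to the Sec61 channel, and helpers such as Sec62, Sec63, Tram1 and the translocon-associated protein (TRAP) complex assist the passage. Signal peptidase cuts the signal off, oligosaccharyltransferase (OST) moves a preassembled glycan to asparagines, and coated vesicles take the cargo to the Golgi. In B cells that turn into antibody-secreting cells this route is enlarged, with the transcription factor Xbp1 as a well known driver.

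The machinery mixes very short with long proteins, and the place of its mRNAs in the gradients followed that length. The 34 coding sequences ran from 37 codons (Ost4) to 1230 codons (Sec31a) with a median of 222.5. The 4 shortest are printed here because an mRNA can carry only as many ribosomes as its reading frame has room for. Each is the spliced coding sequence without its stop codon from the GENCODE M21 annotation of GRCm38, 5′ to 3′, with the start codon in capitals.
Ost4: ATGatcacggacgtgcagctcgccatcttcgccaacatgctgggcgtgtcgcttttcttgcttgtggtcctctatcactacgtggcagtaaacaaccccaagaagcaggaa
Sec61g: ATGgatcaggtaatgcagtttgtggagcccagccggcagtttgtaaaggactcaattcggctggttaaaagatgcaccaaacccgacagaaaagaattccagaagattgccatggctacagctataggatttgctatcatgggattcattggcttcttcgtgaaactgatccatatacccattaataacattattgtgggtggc
Srp9: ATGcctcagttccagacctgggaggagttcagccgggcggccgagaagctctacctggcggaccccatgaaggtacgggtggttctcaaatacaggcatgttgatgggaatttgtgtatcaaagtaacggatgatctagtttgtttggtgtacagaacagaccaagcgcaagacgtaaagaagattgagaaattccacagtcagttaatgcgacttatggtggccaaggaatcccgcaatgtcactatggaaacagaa
Sec61b: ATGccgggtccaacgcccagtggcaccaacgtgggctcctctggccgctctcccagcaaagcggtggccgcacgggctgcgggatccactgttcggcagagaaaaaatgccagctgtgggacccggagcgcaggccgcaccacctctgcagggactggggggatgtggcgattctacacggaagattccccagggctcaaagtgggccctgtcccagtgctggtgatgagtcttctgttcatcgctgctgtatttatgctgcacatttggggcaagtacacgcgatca
The reading frame of Ost4 lies in 1 exon on the minus strand at chr5:30907425-30907535. Those of Sec61g (minus strand, chr11:16501801-16506466), Srp9 (plus strand, chr1:182124904-182131452) and Sec61b (plus strand, chr4:47474751-47483059) span introns that were left out. They hold 111, 204, 258 and 288 bases. Ost4 is a small membrane subunit of OST, Sec61g and Sec61b are the small subunits of the Sec61 channel, and Srp9 binds the Alu part of the SRP RNA together with Srp14.

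The 12 gradients held 6404957 to 21449781 counts each, and their 156 libraries a median of 811932. The LPS+ET gradient of pool LUL16 stood apart, with the fewest counts and 30.4% of them in heavy fractions against 60.5% to 68.2% in the other LPS+ET gradients. Cdkn1a, a p53 target induced by DNA damage, rose from 26.9 ± 4.29 CPM in LPS (SD, n = 4) to 722 ± 167 CPM in LPS+ET (edgeR adjusted p = 5.3e-07). With KU55933 added it was at 662 ± 184 CPM, a log2 difference of −0.12 ± 0.25 (SE) from LPS+ET (adjusted p = 0.86), so it gives the etoposide label a check and the KU55933 label none. All 7 B cell markers were above 0 in every gradient, with sums of 6623 to 11102 CPM, while the T cell, NK and erythroid lists (5 of 7, 2 of 4 and 2 of 5 genes in the table) summed to at most 6.90, 1.77 and 1.24 CPM. Myeloid markers (7 of 7 above 0 in every gradient) summed to 33.4 to 86.8 CPM in LPS, 47.2 to 167 with etoposide and 32.9 to 125 with etoposide and KU55933. The 5 plasma cell markers, all above 0 in every gradient, summed to 388 to 641, 395 to 1238 and 199 to 687 CPM in the same order. The part of these cells in the results below was not tested. In such bulk samples fewer cells of a type and less RNA per cell cannot be told apart.

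In LPS the 34 genes together made up 7654 ± 370 CPM (SD, n = 4), and single genes ran from 3.00 to 1208 CPM. Spcs2, an accessory subunit of signal peptidase, was highest at 1208 ± 93.1 CPM. Dad1, a small OST subunit first known as a defender against cell death, followed at 968 ± 146 CPM. Tram1, a membrane protein beside the channel, had 665 ± 138 CPM and Sec11c, a catalytic subunit of signal peptidase, 611 ± 132 CPM, which did not differ beyond their spread. At the other end stood Sec61g with 3.00 ± 0.648 CPM and Srpr, the SRP-binding subunit of the SRP receptor, with 10.5 ± 2.86 CPM. The channel's 3 subunits were counted very unequally, with Sec61a1 at 271 ± 49.6 CPM and Sec61b at 33.96 ± 3.36 CPM. By role, the 7 OST genes summed to 2351 ± 227 CPM, the 5 signal peptidase genes to 2078 ± 45.5, the 6 translocon genes to 1314 ± 135, the 4 TRAP genes to 850 ± 30.0, the 5 SRP genes to 581 ± 44.4, the 5 ER to Golgi genes to 407 ± 24.1 and the 2 receptor genes to 71.9 ± 4.52 CPM.

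The remaining genes lay between these ends. In TRAP, which helps some signals to open the channel, Ssr1 had 177 ± 21.9 CPM, Ssr2 160 ± 9.53, Ssr3 128 ± 27.2 and Ssr4 385 ± 12.7. The signal peptidase subunits Spcs1 and Spcs3 had 43.0 ± 2.21 and 31.3 ± 2.13 CPM, far below Spcs2. In SRP, Srp19 had 251 ± 40.7 CPM, Srp72 108 ± 8.30, Srp14 103.9 ± 21.6, Srp68 83.8 ± 7.84 and Srp9 34.4 ± 4.21. Srprb, which anchors the SRP receptor in the membrane, had 61.4 ± 5.27 CPM. Ddost, an OST subunit close to the ribophorins, had 183 ± 11.4 CPM, Rpn1 391 ± 52.7 and Rpn2 217 ± 22.2. The BiP partner Sec63 had 175 ± 26.6 CPM and Sec62 166 ± 17.3. Of the ER to Golgi genes, Tmed2 and its p24 partner Tmed10 had 104.3 ± 21.1 and 86.5 ± 8.08 CPM, the coat genes Sec13 and Sec31a 103 ± 36.3 and 50.4 ± 9.14, and Sec22b, a SNARE of vesicle fusion, 62.4 ± 2.64.

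The counted site lay within 100 bases of an annotated transcript end for 29 of the 34 genes and in an untranslated exon for 28. At 18 genes all counts came from 1 site, and at 16 from more. The major site of Srp72 took 41.3% of its counts, the rest falling on 4 others of its 5 sites. The sites of Ost4 and Srpr also lie across from the antisense genes Agbl5 and Fam118b. Whether counting used the strand is not given in the sources used here, so reads of these pairs may not be told apart.

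Along the LPS gradients the mRNAs spread from the monosomes to the bottom of the tube in an order that followed the length of their reading frames. The position of a gene was measured as its centre of sedimentation, the mean fraction number weighted by its CPM in each fraction, with all 13 fractions given equal weight. Ost4 had the lowest centre at 8.16 ± 0.25 (SD, n = 4) and Stt3a, a catalytic OST subunit of 705 codons, the highest at 13.1 ± 0.53. Across the 34 genes the centre and the log of coding length had a Spearman rho of 0.836 (Pearson r = 0.850), and 0.740 to 0.887 in single LPS gradients. With etoposide rho was 0.80, and with KU55933 added it was 0.801. Across the 7585 genes with enough counts it was 0.560, 0.519 and 0.569 in the same order. These correlations run across genes that share libraries and are given as a description only.

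**Figure D1:**
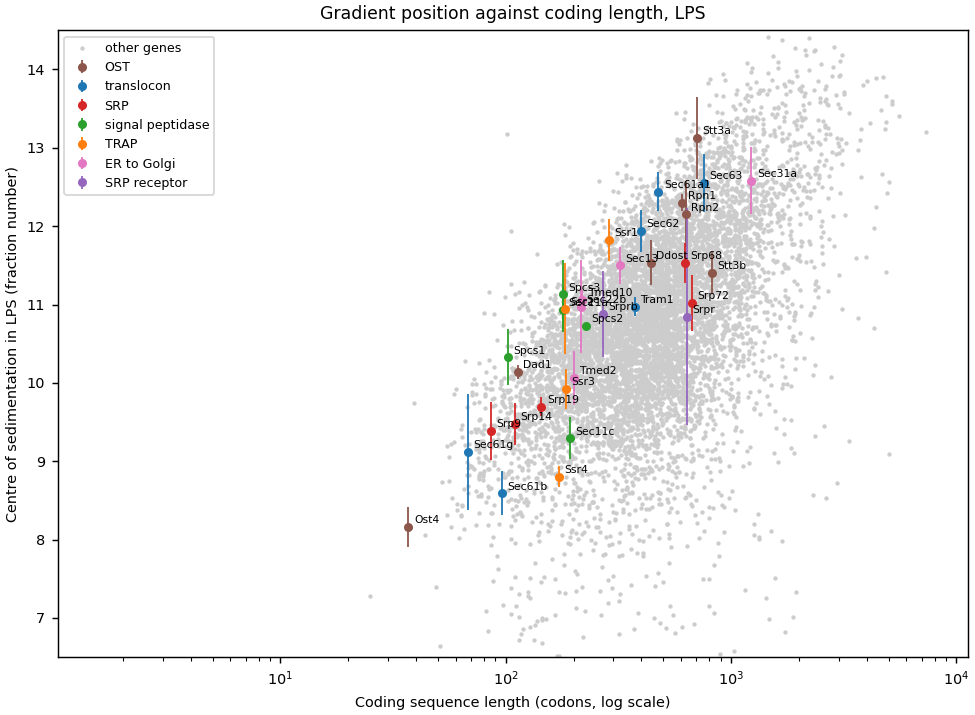
Centre of sedimentation in LPS (fraction number, mean of 4 gradients with SD bars) against coding length in codons (log scale), with the 34 genes coloured by role and the other genes in grey. The 34 genes rise from Ost4 at 8.16 to Stt3a at 13.1.

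Compared with genes of similar length (0.8 to 1.25 times their codons), 23 of the 34 genes sat deeper in the gradient than the median and 11 less deep. Stt3a lay deeper than 99.0% of its length class, and Sec61a1, the pore-forming subunit of the channel, at 12.4 ± 0.25 deeper than 97.7%. Ssr1, the alpha subunit of TRAP (11.8 ± 0.26), Spcs3, a signal peptidase subunit (11.1 ± 0.44), and Sec62 (11.9 ± 0.27) were deeper than 96.5%, 93.9% and 93.3%. At the other side Ssr4, the delta subunit of TRAP, had a centre of 8.80 ± 0.13 with 172 codons, and only 9.15% of genes of its length were less deep. Sec11c and Sec61b followed with 15.6% and 15.9%. TRAP, whose 4 subunits form a single complex, thus held genes near both ends of this ranking, Ssr1 with 286 codons and Ssr4 with 172. The 7 genes under 120 codons had a median centre of 9.39 and all 335 measured genes of that size 9.34. The 14 genes over 300 codons had 11.7 against 11.1 for 5352 genes.

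**Figure D2:**
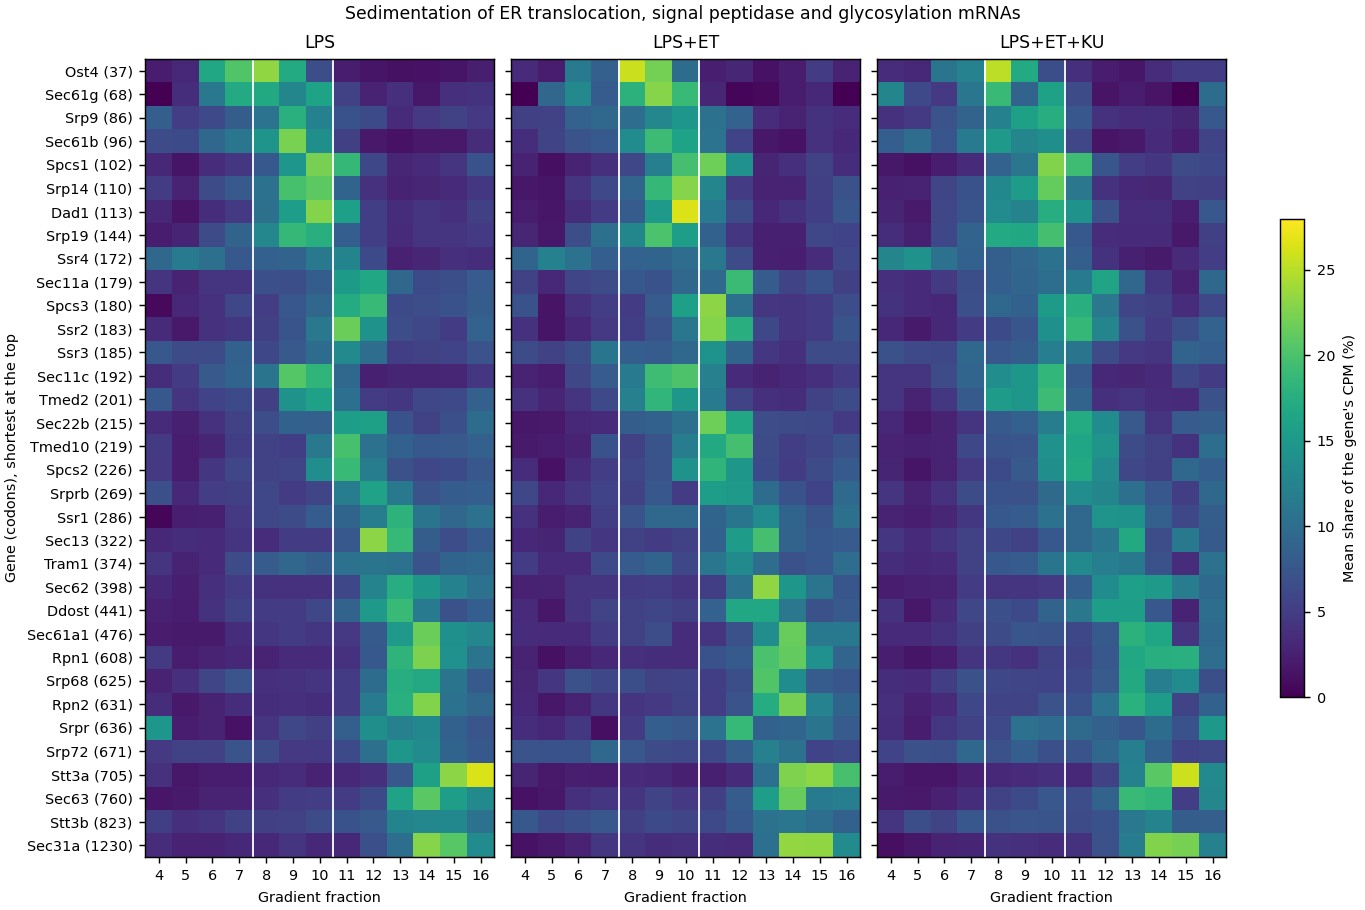
Mean share of each gene's CPM (%) in fractions 4 to 16 for the 3 treatments, genes ordered by codons with the shortest at the top. In LPS the bright cells move from fraction 8 for Ost4 (23.3%) to fraction 16 for Stt3a (26.4%).

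Single profiles show how sharp these positions were. In LPS, Ost4 mRNA had 16.8% of its CPM in fraction 6, 20.4% in 7, 23.3% in 8 and 17.1% in 9, and no fraction from 11 on held more than 2.33%. Sec61b peaked in fraction 9 with 22.4 ± 3.35% (SD, n = 4) and Dad1 in fraction 10 with 22.8 ± 1.91%. The 7 genes under 120 codons peaked in fractions 7 to 10. Rpn1 and Rpn2, the ribophorins that anchor OST, peaked in fraction 14 with 22.4 ± 6.11% and 22.7 ± 6.74%. Sec31a, an outer coat protein of the vesicles that leave the ER, also peaked in fraction 14 with 22.96 ± 2.25%. Ssr4 was spread more evenly, with its highest share, 12.7 ± 2.26%, in fraction 11. Srpr had its highest share, 14.7 ± 16.5%, in fraction 4, and its spread shows that a few counts set it.

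Heavy polysomes were compared with monosomes inside each gradient, on counts summed over the fractions of a class. In LPS 29 of 34 genes passed an adjusted p under 0.01 in edgeR's quasi-likelihood test, 21 higher in heavy polysomes and 8 lower, where 51.4% of all genes tested passed. The median log2 ratio was 0.81, and 0.11 over all 11034 genes tested. The ratio is relative to the average mRNA of each class, and it depends on how fractions of unequal depth are added. With all fractions at equal weight 23 genes were called higher and 3 lower, and the median of all genes tested moved from 0.11 to 0.60. The share of all genes called under that weighting is not given here, so these counts are no result about the 34 genes. The most extreme genes below kept their direction under that weighting.

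By role, 5 of 7 OST, 4 of 6 translocon and 4 of 5 ER to Golgi genes were called higher in heavy polysomes. So were 2 of 2 SRP receptor, 3 of 5 signal peptidase, 2 of 4 TRAP and 1 of 5 SRP genes. All OST genes but Ost4 were higher in heavy polysomes or not called, with Stt3a at log2 1.68 ± 0.18 (SE), Rpn2 at 1.65 and Rpn1 at 1.63. Stt3a held 80.9, 81.1, 74.3 and 84.4% of its CPM in heavy fractions of the 4 LPS gradients, and Rpn2 76.0, 74.5, 84.3 and 72.0%. The lowest of these 8 shares was 72.0%. In the translocon Sec61a1 (1.69 ± 0.14) held 75.5, 76.7, 81.3 and 72.0% in heavy fractions, and Sec63, a partner of the lumenal chaperone BiP, had a log2 ratio of 1.65. Of the ER to Golgi genes 4 of 5 had positive ratios with a median of 1.32, and Tmed2, a cargo receptor of the p24 family, had −0.21 and was not called.

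The 8 genes called lower had reading frames of 37 (Ost4) to 192 codons (Sec11c). Not all genes of such length were among them, as Sec11a with 179 codons was called higher. Ost4 had a log2 ratio of −3.61 ± 0.18 (SE, adjusted p = 7.5e-20) with 9.82, 10.1, 11.0 and 11.1% of its CPM in heavy fractions of the LPS gradients. Sec61b had −2.21 ± 0.17 with 18.6, 17.5, 13.4 and 14.4%. Sec61g, with only 36 to 46 counts in each LPS gradient, had −1.98 with 22.7, 35.7, 15.7 and 13.6%, a call lost under 1 of 3 other settings. None of these 12 shares reached the lowest heavy share of Stt3a, Rpn2 or Sec61a1, 72.0%. Those genes were picked as the highest and lowest ratios in the same gradients, so the gap is no separate result. Ssr4 (−1.26), Sec11c (−1.20), Srp9 (−0.87), Srp14 (−0.86) and Srp19, an SRP protein that helps to load Srp54 (−0.74), were also called lower. With all fractions at equal weight 3 genes were called lower in place of these 8. The large SRP subunits Srp68 and Srp72, which bind each other, were at positive ratios, and Srp72 (0.33) was not called, nor were Ssr3, Dad1 and Spcs1.

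**Figure D3:**
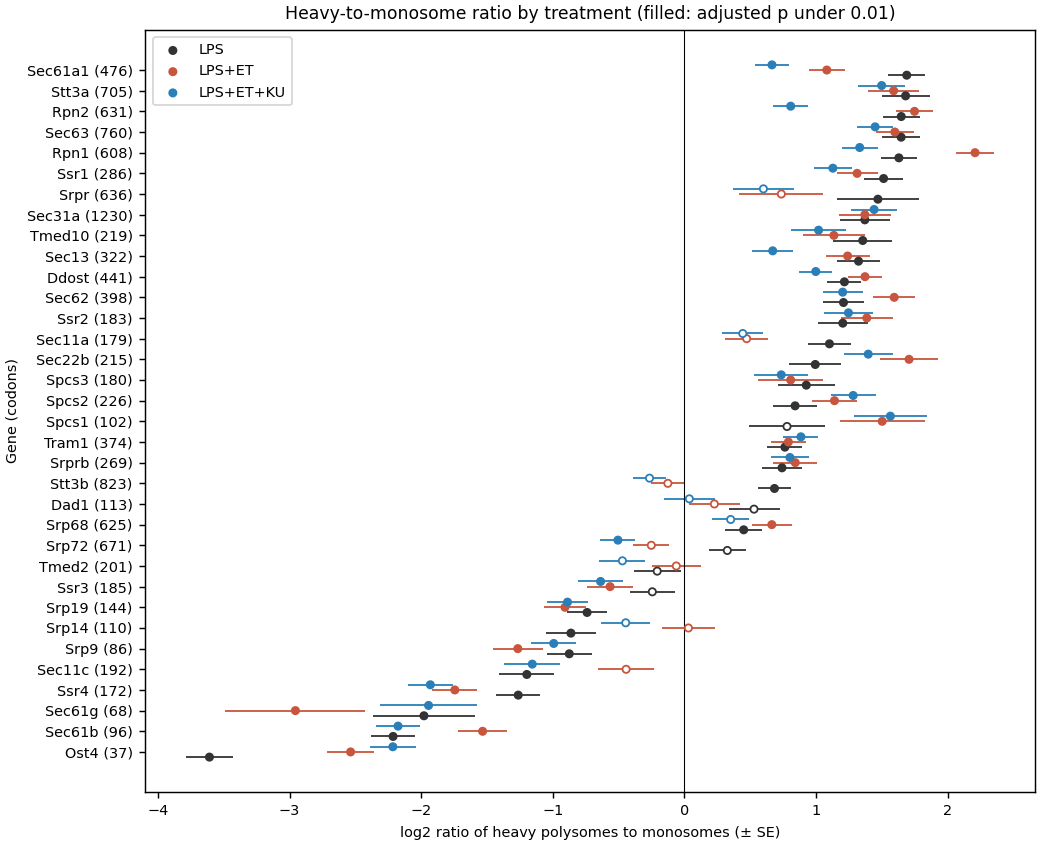
Log2 ratio of heavy polysomes to monosomes for each gene (± SE) in the 3 treatments, filled where the adjusted p was under 0.01, with codons beside the names. Values run from −3.61 for Ost4 to 1.69 for Sec61a1 in LPS.

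The ratio was also tested in the other treatments. With etoposide 26 of 34 genes were called, 19 higher and 7 lower, with 49.6% of all genes tested. With KU55933 added 27 of 34 were called, 18 higher and 9 lower, with 54.4%. Equal weight for fractions gave 23 higher and 3 lower, and 21 higher and 3 lower, again without the share of all genes to set beside them. Heavy against light polysomes in LPS gave 29 of 34, 18 higher and 11 lower, with 53.4% of all genes. Ost4 was at −2.54 with etoposide and −2.22 with KU55933 added, and Sec61b at −1.53 and −2.18. These values come from separate gradients but 1 fit.

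The question of the etoposide comparison is which mRNAs change their share of the counts in ribosome fractions when DNA is damaged. The paper reports that etoposide lowered polysome assembly globally, which such shares do not show. Over all fractions 1 of the 34 genes passed, Srp72, and 12.7% of all 12755 genes tested did. Without a filter on low counts no member passed, and Srp72 had an adjusted p of 0.012. The genes were on both sides of 0, with 13 positive and 21 negative log2 changes and a median of −0.09 against 0.03 for all genes tested. Their summed level was 7706 ± 1005 CPM with etoposide (SD, n = 4), beside 7654 ± 370 CPM without it. With the pool as a block, which takes out differences shared by gradients of a pool, 4 genes passed, Srp72 higher and Ost4, Stt3b and Srp9 lower, beside 26.7% of all genes tested. Without the LPS+ET gradient of LUL16 the count was 2, Srp72 and Stt3b, and 18 log2 changes were positive.

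Srp72, the scaffold on which SRP's protein part is built together with Srp68, had 119, 110, 100 and 102 CPM in LPS and 216, 181, 177 and 179 CPM in LPS+ET. In LPS+ET+KU it had 188, 140, 158 and 151 CPM. Every etoposide gradient, with or without KU55933, lay above every LPS gradient. The log2 change was 0.69 ± 0.14 (SE, edgeR adjusted p = 0.0028) in LPS+ET. The adjusted p was 0.0107 to 0.0126 without the LPS gradient of LUL15, LUL17 or LUL18 or the LPS+ET gradient of LUL18, with log2 changes of 0.64 to 0.69. In LPS+ET+KU against LPS the change was 0.44 ± 0.14 (adjusted p = 0.033), which passed the threshold with the block (adjusted p = 0.0096), in DESeq2 and with equal weight for all fractions (adjusted p = 0.0030).

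**Figure D4:**
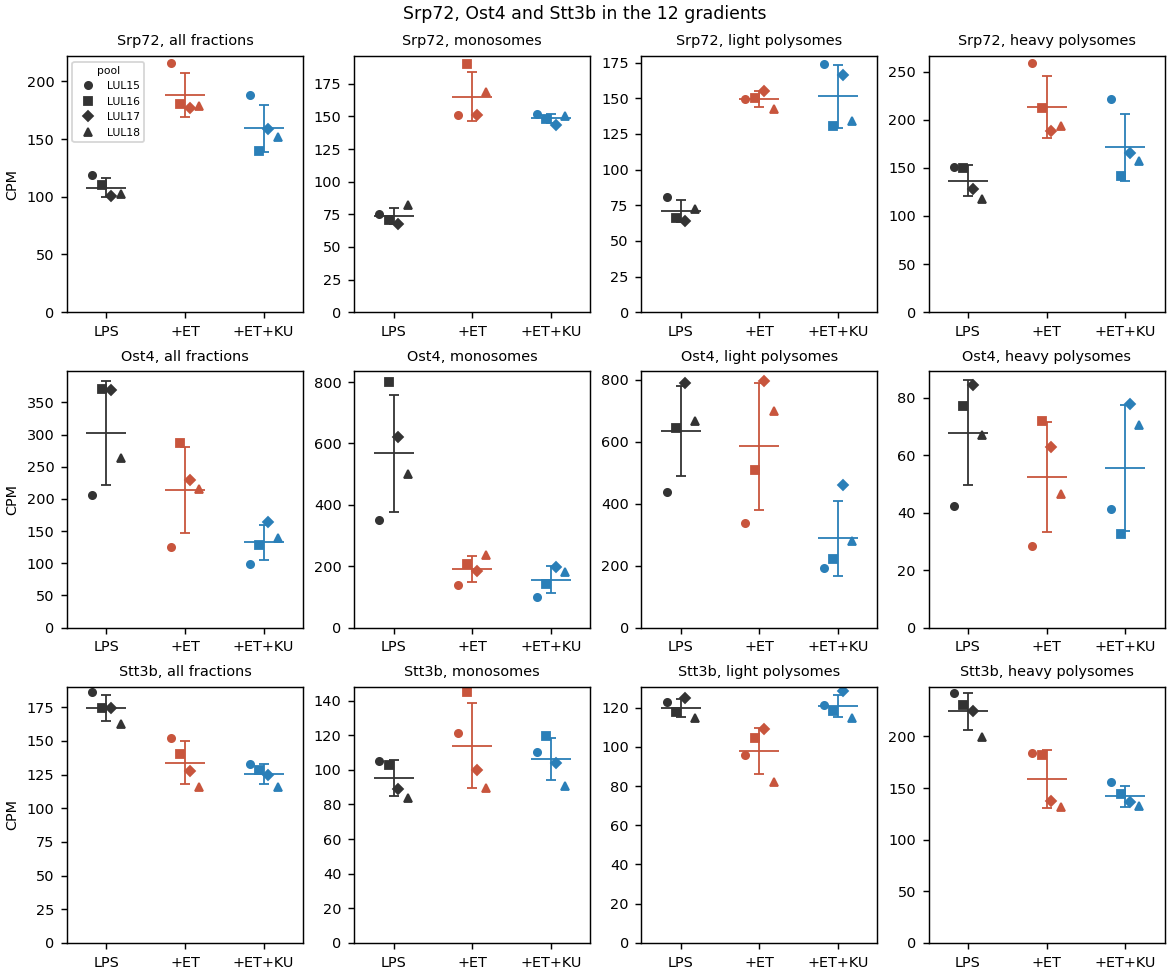
CPM of Srp72, Ost4 and Stt3b in each of the 12 gradients over all fractions and in the 3 fraction classes, one symbol per pool, with mean and SD. All Srp72 values over all fractions are at or below 119 in LPS and at or above 140 with etoposide.

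Ost4 had 207, 371, 369 and 263 CPM in LPS, 125, 287, 229 and 216 in LPS+ET and 98.9, 128, 165 and 139 in LPS+ET+KU. In each pool the order was LPS, LPS+ET, LPS+ET+KU, but LPS and LPS+ET overlapped as groups. The change in LPS+ET was −0.60 ± 0.30 (SE, adjusted p = 0.17) and −0.63 ± 0.15 with the block (adjusted p = 0.0050). Stt3b, the other catalytic OST subunit, had 187, 174, 174 and 162 CPM in LPS, 152, 140, 128 and 115 in LPS+ET and 133, 128, 125 and 116 in LPS+ET+KU. Its LPS values were all above those of both other treatments. The change in LPS+ET was −0.50 ± 0.13 (adjusted p = 0.015), called with the block (adjusted p = 0.0033), in DESeq2 and without the LPS+ET gradient of LUL16.

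Groups of gradients did not overlap for 3 of the 34 genes between LPS+ET and LPS, against 26.4% of all genes tested. They were Srp72, Stt3b and Srp9, which had 33.4, 29.6, 39.8 and 34.9 CPM in LPS and 24.9, 24.98, 28.8 and 26.8 CPM in LPS+ET. Sec62, which serves translocation after translation ends, had 189, 150, 167 and 156 CPM in LPS and 276, 138, 317 and 245 in LPS+ET. The LPS+ET gradient of LUL16 was the lowest of all 8 and the other 3 were the highest, and the log2 change of 0.45 ± 0.23 (adjusted p = 0.19) became 0.63 without it (adjusted p = 0.022). By role the medians ran from −0.28 for OST to 0.07 for the ER to Golgi genes, and no role but SRP had a called gene.

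LPS+ET+KU was compared with LPS+ET to see what differs when the ATM inhibitor is given with etoposide. No gene of the 34 passed between LPS+ET+KU and LPS+ET in edgeR or DESeq2, with 3 and 5 at an unadjusted p under 0.05, and 0.455% of all genes tested passed in edgeR. All 7 OST and all 6 translocon genes had negative log2 changes, with medians of −0.35 and −0.28, and 26 of 34 genes were negative overall (median −0.21, all genes tested 0.04). With all fractions at equal weight 22 were negative and the median was −0.05.

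Rpn1 had the most negative value. It was at 371, 306, 617 and 460 CPM in LPS+ET and 240, 172, 386 and 257 CPM in LPS+ET+KU, lower in each of the 4 pools although the groups overlapped. The change was −0.73 ± 0.28 (SE, adjusted p = 0.20), and with the block −0.74 ± 0.15 (adjusted p = 0.0064), the only call there, where 6.36% of all genes tested passed. Ost4 had −0.70 ± 0.30 (adjusted p = 0.27). Sec61b was the only gene whose groups did not overlap, with 31.9, 32.9, 35.3 and 35.3 CPM in LPS+ET and 25.5, 16.3, 29.1 and 31.8 CPM in LPS+ET+KU, where 8.26% of all genes tested did not overlap. Srpr (0.41 ± 0.31) and Sec11a (0.16 ± 0.20), a catalytic signal peptidase subunit, had the most positive values. Srpr had 7.32, 8.90, 13.6 and 12.1 CPM in LPS, 10.4, 7.49, 13.7 and 11.3 in LPS+ET and 13.0, 7.60, 19.6 and 16.9 CPM in LPS+ET+KU, so the groups overlapped. Sec11a had 186, 99.9, 149 and 149 CPM in LPS+ET and 172, 175, 152 and 151 in LPS+ET+KU, with overlapping groups and the LPS+ET gradient of LUL16 as the lowest of the 8.

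**Figure D5:**
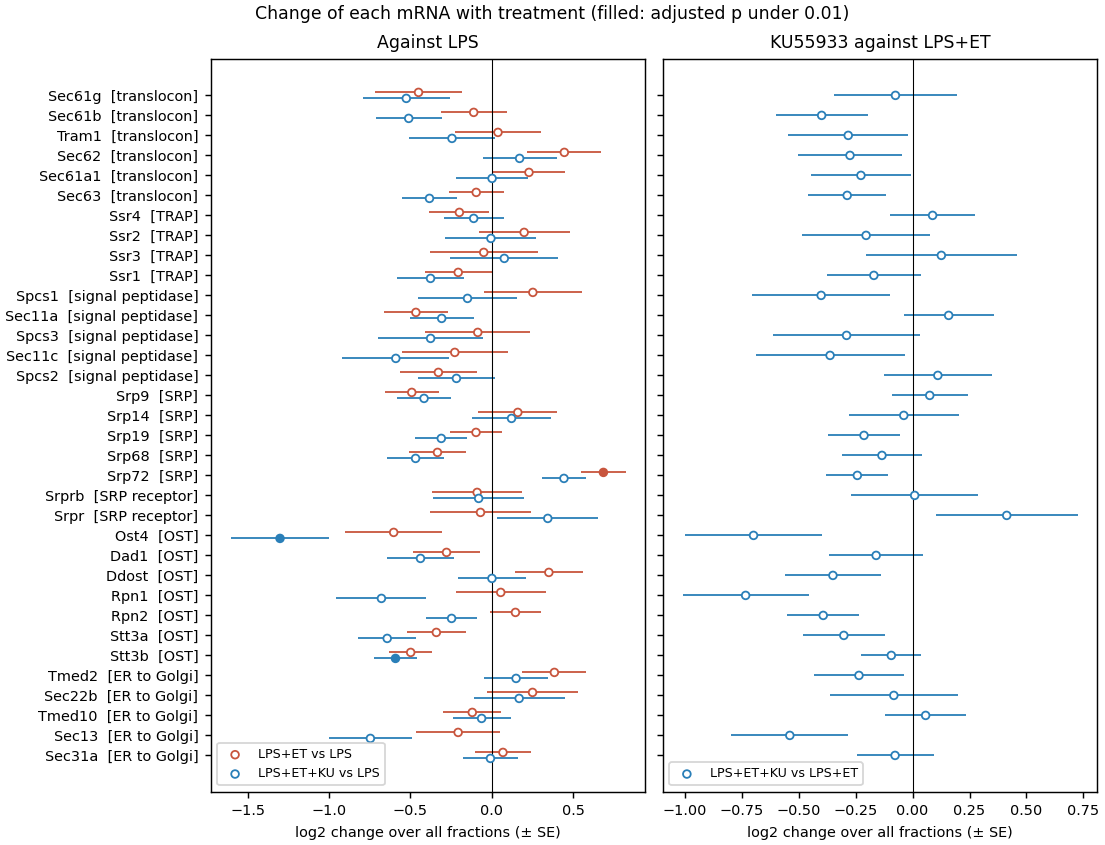
Log2 change of each mRNA over all fractions (± SE) by role, with filled symbols where the adjusted p was under 0.01. Values of LPS+ET against LPS run from −0.60 for Ost4 to 0.69 for Srp72, and LPS+ET+KU lies left of 0 for all OST and translocon genes when set against LPS+ET.

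Set against LPS gradients, 2 of the 34 genes, Ost4 and Stt3b, fell in LPS+ET+KU, while 10.7% of all genes tested passed. This comparison shares its LPS gradients with the etoposide comparison. Ost4 was at −1.30 ± 0.30 (SE, adjusted p = 0.0083) and Stt3b at −0.59 ± 0.13 (adjusted p = 0.0064), and for both no gradient of LPS+ET+KU reached the lowest of LPS. The calls were close to the threshold. That of Ost4 was lost in 9 and that of Stt3b in 10 of the 12 fits that left out 1 gradient, with adjusted p up to 0.028 and 0.022, while the log2 changes stayed between −1.47 and −1.15 and between −0.62 and −0.57. Giving all fractions equal weight lowered the change of Stt3b to −0.33 (adjusted p = 0.076) and left Srp72 as the only call.

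With the pool as a block 7 genes passed in LPS+ET+KU against LPS, Srp72 higher and Ost4, Stt3b, Stt3a, Rpn1, Srp68 and Sec11c lower, beside 28.1% of all genes tested. The summed level of the 7 OST genes was 2140 to 2605 CPM in LPS, 2187 to 2341 in LPS+ET and 1513 to 1923 in LPS+ET+KU. The LPS+ET+KU sums were all below those of the other treatments, and no test was run on the sum. These sums weight fractions by depth, and heavy fractions held 43.1, 37.6, 55.5 and 51.4% of all counts in LPS+ET+KU. Heavy fractions held 55.4, 52.3, 55.6 and 62.4% in LPS and 60.5, 30.4, 68.2 and 64.9% in LPS+ET. The part of this weighting in the lower sums was not tested. Irf4 and Prdm1, transcription factors of plasma cell fate, had their lowest mean in LPS+ET+KU. Irf4 was at 191 ± 29.4, 223 ± 37.4 and 104.1 ± 12.6 CPM in LPS, LPS+ET and LPS+ET+KU (SD, n = 4), and Prdm1 at 51.9 ± 16.5, 45.8 ± 25.8 and 26.6 ± 17.8 CPM. Both belong to the plasma cell markers above and were singled out after their values were seen, and their part in the OST levels was not tested. Xbp1, of the same list, did not fall, with means of 101 ± 14.7, 104.2 ± 56.5 and 103 ± 46.2 CPM in that order. Sdc1 and the J chain gene complete that list and are given here only within its sum, so Irf4 and Prdm1 do not stand for it. Sec13, a coat protein of ER-derived vesicles and of the nuclear pore, was at 118, 144, 59.0 and 92.9 CPM in LPS, 133, 74.9, 83.5 and 101 in LPS+ET and 83.6, 75.2, 56.4 and 55.5 in LPS+ET+KU. Its groups overlapped, with LPS gradients at 59.0 to 144 CPM, and its change of −0.75 ± 0.26 had an adjusted p of 0.052. Groups did not overlap for 3 genes, Srp72, Stt3b and Ost4, against 26.3% of all genes tested.

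Within the monosome fractions 2 of 33 genes tested passed between LPS+ET and LPS, and 9.52% of all genes. Srp72 had 75.2, 70.9, 67.8 and 81.9 CPM there in LPS, 151, 190, 151 and 168 in LPS+ET and 152, 148, 143 and 151 in LPS+ET+KU. The lowest etoposide value was well above the highest LPS value, and the log2 changes were 1.21 ± 0.16 (SE, adjusted p = 0.00013) in LPS+ET and 0.98 ± 0.15 (adjusted p = 0.00096) in LPS+ET+KU. Both were called in every fit that left out 1 gradient. Ost4 had 350, 800, 622 and 501 CPM in monosomes of LPS, 138, 206, 183 and 237 of LPS+ET and 99.2, 143, 198 and 182 of LPS+ET+KU. No treated gradient reached the lowest LPS value, and the changes were −1.52 ± 0.31 (adjusted p = 0.0034) and −1.88 ± 0.31 (adjusted p = 0.0013). The first was lost without the LPS gradient of LUL16 or LUL17 or the LPS+ET gradient of LUL15, at adjusted p of 0.0107 to 0.0125.

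With the block the monosome count was 6 in both comparisons with LPS, beside 24.6% of all genes with etoposide and 23.2% with KU55933 added. Sec61a1 higher, Sec11c, Spcs2, Srp14 and Ost4 lower and Srp72 higher made up that of LPS+ET. Sec61a1 was at 0.90 ± 0.13 (adjusted p = 1.8e-05) and Sec11c at −0.95 ± 0.13 (adjusted p = 7.4e-06). In LPS+ET+KU against LPS 2 of 33 genes passed without the block, Ost4 and Srp72, and 5.96% of all genes. Between LPS+ET+KU and LPS+ET none passed in monosomes in edgeR or DESeq2, with 1 at an unadjusted p under 0.05 in each, and 0.213% of all genes passed.

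In light polysomes Srp72 was the single call of 34 in LPS+ET (10.6% of all genes tested) and in LPS+ET+KU (7.13%), each against LPS. It had 81.0, 65.8, 64.0 and 72.5 CPM in LPS, 150, 150, 155 and 142 in LPS+ET and 174, 130, 167 and 134 in LPS+ET+KU. The treated values were again all higher, by log2 0.96 ± 0.16 and 0.87 ± 0.16, and without LPS LUL16, LUL17 or LUL18 or LPS+ET+KU LUL15 the latter had adjusted p of 0.0103 to 0.0133. With the block 3 and 9 genes passed, beside 25% and 24.1% of all genes. The 3 were Srp72, Tmed2 higher (0.80 ± 0.15) and Srp9 lower (−0.50 ± 0.14), and the 9 included the rises of Sec61a1, Rpn2, Ddost, Tmed2 and Srpr beside falls of Ost4, Sec61b and Sec11c.

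Between LPS+ET+KU and LPS+ET no gene passed in light polysomes in edgeR or DESeq2, with 4 at an unadjusted p under 0.05 in each and 0.292% of all genes called. With the block Ost4 (−1.13 ± 0.16) and Sec61b (−0.86 ± 0.17) passed, beside 5.35% of all genes. Ost4 had 437, 645, 789 and 666 CPM in light polysomes of LPS, 337, 507, 795 and 699 of LPS+ET and 192, 221, 461 and 280 of LPS+ET+KU. In light polysomes, then, its LPS and LPS+ET values were alike in range and those of LPS+ET+KU were lower in every pool, while in monosomes the values had already dropped in LPS+ET.

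In heavy polysomes no gene of 33 passed between LPS+ET and LPS in edgeR, with 4 at an unadjusted p under 0.05 and 9.69% of all genes called, and DESeq2 called Srp72 and Stt3b. Without the LPS+ET gradient of LUL16 edgeR called 1, lower. In LPS+ET+KU against LPS 1 gene passed, Stt3b, and 7.95% of all genes. Stt3b had 242, 230, 224 and 200 CPM in heavy fractions of LPS, 184, 182, 138 and 132 of LPS+ET and 156, 144, 136 and 132 of LPS+ET+KU. All treated values were below all LPS values, and the change in LPS+ET+KU was −0.83 ± 0.19 (SE, adjusted p = 0.0079), with 10 of 12 fits that left out 1 gradient at adjusted p up to 0.027. With the block Rpn1 and Sec13 also passed, both lower, beside 21.4% of all genes. Between LPS+ET+KU and LPS+ET none passed in edgeR or DESeq2, with 4 and 5 at an unadjusted p under 0.05 and 0.572% of all genes called.

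Whether an mRNA changed its place along the gradient, apart from its level, was asked by the change of the heavy-to-monosome ratio between treatments. Between LPS+ET and LPS 2 of 34 genes passed, both of OST, and 5.1% of all genes. The log2 ratio of Stt3b changed by −0.81 ± 0.18 (SE, adjusted p = 0.0021) and that of Ost4 by 1.07 ± 0.24 (adjusted p = 0.0024). Another 9 genes had an unadjusted p under 0.05. Without the LPS gradient of LUL16 or the LPS+ET gradient of LUL17 the count was 0, and without the LPS gradient of LUL15 it was 1, Ost4. Neither call held when gradients were not treated as blocks (adjusted p = 0.041 and 0.31), nor on the heavy share with equal weight for every fraction (0.11 and 0.42), and without the LPS+ET gradient of LUL16 the count was 6.

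The shares behind these calls differ in kind. Stt3b had 67.2, 64.5, 63.1 and 61.0% of its CPM in heavy fractions in LPS, 59.7, 50.0, 50.8 and 56.4% in LPS+ET and 56.7, 51.4, 53.4 and 54.9% in LPS+ET+KU. Every treated gradient was below every LPS gradient. Ost4 had 9.82, 10.1, 11.0 and 11.1% in LPS but 11.6, 33.1, 12.2 and 9.55% in LPS+ET, so 1 gradient, LUL16, stood out and the others overlapped with LPS. Its monosome share is where the groups parted, with 40.2, 53.3, 38.9 and 37.6% in LPS and 30.3, 27.2, 20.5 and 24.7% in LPS+ET. The ratio of Ost4 thus changed with its monosome share in all 4 gradients and with its heavy share in 1. Without that gradient its ratio still gained 0.90 (adjusted p = 0.0035).

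Between LPS+ET+KU and LPS+ET no ratio passed in edgeR, with 7 at an unadjusted p under 0.05 and 0.181% of all genes called. Rpn2 (−0.94, adjusted p = 0.0102) and Rpn1 (−0.88 ± 0.20, adjusted p = 0.016) were closest, and DESeq2 called both lower. Rpn2 had 73.5, 64.7, 77.6 and 77.5% of its CPM in heavy fractions in LPS+ET and 65.9, 59.7, 67.0 and 69.3% in LPS+ET+KU. It was lower with KU55933 in each pool, though the groups overlapped.

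A test of the whole profile, treatment and its interaction with fraction over single libraries, treats fractions of a gradient as independent and combines level with place. It called Srp72 (adjusted p = 8.3e-11), Stt3b (0.00036) and Ost4 (0.0026) of 33 genes between LPS+ET and LPS, and 31% of all genes. Between LPS+ET+KU and LPS+ET it called Dad1 (0.0084), and 8.01% of all genes. Without 1 gradient the first count was 1 (LPS+ET of LUL18) to 6 (LPS+ET of LUL16). The second was 6 without LPS+ET+KU of LUL17, 2 without LPS+ET of LUL16 and 0 without any of the other 6. With the pool as a block the counts were 8 and 7, beside 41.7% and 18.3% of all genes. For the interaction alone they were 0 and 0, with 4 and 7 genes at an unadjusted p under 0.05.

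Paralogs that stand in for each other in a complex differed in both level and place. Sec11c and Sec11a, the alternative catalytic subunits of signal peptidase, had centres of 9.29 ± 0.27 and 10.9 ± 0.28 in LPS with similar lengths of 192 and 179 codons. Sec11c was at 525, 487, 778 and 655 CPM in LPS and Sec11a at 187, 234, 144 and 173 CPM, so Sec11c was the higher in every gradient. It was at 349, 413, 809 and 665 CPM in LPS+ET and 311, 303, 591 and 534 CPM in LPS+ET+KU. Their ratio was 3.52 ± 1.44 in LPS (SD, n = 4), 3.98 ± 1.51 with etoposide and 2.74 ± 1.13 with etoposide and KU55933. Stt3a, which glycosylates while the chain is still entering, and Stt3b, which can act after, had centres of 13.1 ± 0.53 and 11.4 ± 0.27. Stt3a was at 98.7, 89.6, 156 and 118 CPM in LPS, 107, 103.98, 98.8 and 85.2 in LPS+ET and 80.4, 89.8, 79.9 and 70.1 in LPS+ET+KU. The ratio of Stt3b to Stt3a was 1.58 ± 0.40, 1.35 ± 0.05 and 1.57 ± 0.10 in the 3 treatments.

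None of the 6 ratio comparisons reached an adjusted p under 0.01 in an exact two-sided permutation test over gradients, and the design could not reach it. The lowest p, 0.0286, is the smallest that 4 against 4 gradients allow. It belonged to Stt3b to Stt3a between LPS+ET+KU and LPS+ET (log2 0.21, higher in 4 of 4 pools, adjusted p = 0.17), a difference of 0.01 with equal weight for all fractions (permutation p = 0.97). Sec11c to Sec11a was lower with KU55933 than with etoposide alone in 4 of 4 pools (log2 −0.53, permutation p = 0.17).

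Other genes of the same route were looked at from a list of 92 present in the table, with further translocon and insertion, glycan assembly and vesicle coat genes. Of 88 tested 7 passed after etoposide, 4 higher and 3 lower than in LPS, beside 12.7% of all genes. The largest were Sec31b (2.19, from 1.30 to 6.59 CPM), a paralog of Sec31a, Trappc1 (−1.12), of the TRAPP tethering complex, and Alg10b (1.10), a glucosyltransferase of glycan assembly. Between LPS+ET+KU and LPS+ET none passed in edgeR, with 8 at an unadjusted p under 0.05, beside 0.455% of all genes called. In LPS+ET+KU against LPS 4 passed, 2 in each direction, a lower share than the 10.7% of all genes. Among them were Sec31b (2.07), Tmed4 (1.21) and Mogs (−0.94), which trims the first glucose. Heavy against monosome ratios in LPS passed for 58 of 85, 44 higher and 14 lower, beside 51.4% of all genes tested.

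As context, of 7 ER stress and Xbp1 genes only Atf4 passed in an all-fraction comparison. Xbp1 was at 101 ± 14.7 CPM in LPS (SD, n = 4), at 104.2 ± 56.5 with etoposide and at 103 ± 46.2 with etoposide and KU55933. Hspa5, the chaperone BiP and a standard reporter of ER stress, was at 524 ± 31.6, 475 ± 20.8 and 502 ± 72.8 CPM. Atf4, a stress-induced transcription factor, fell in LPS+ET by 1.12 on the log2 scale (adjusted p = 0.0058), from 1272 ± 158 to 629 ± 181 CPM, and was at 1592 ± 458 CPM with KU55933.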

How the data were processed

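The authors aligned the 3′ end reads to GRCm38 with TopHat2 2.0.12 (as named in the submitters' processing notes, with DESeq2 1.6.3), removed PCR duplicates by random bases, counted with HTSeq and deposited 1 table of raw counts, summed per Ensembl gene, for 157 libraries. Columns were matched to single samples by name for 79 libraries and to a treatment only for 78, so a gradient is named by treatment and pool. A fraction 17 library of LPS with 777 counts was not used.

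Fractions were summed per gradient or class and tested in edgeR 4.0.16 by quasi-likelihood (TMM, filterByExpr, Benjamini-Hochberg adjustment over all genes, threshold 0.01) with 12 gradients in a fit. DESeq2 1.42.0 and limma 3.58.1 ran in R 4.3.3, and other steps in Python 3.11.15 (pandas 2.3.3, numpy 2.4.6, scipy 1.17.1). Scripts were tested on simulated counts with known changes in LPS+ET. The all-fraction test recovered 16.3% of changes of log2 1 and 52.1% of log2 1.5, and the ratio-change test 24.2% and 59%. Genes not called may thus have changed. Heavy against monosome tests had the gradient as a term. Alternatives were the pool as a replicate block, DESeq2, no filter on low counts, a threshold of 0.05, only the 8 gradients compared, equal weight for fractions and leaving out each gradient. Pools pair the gradients: across genes, deviations from treatment means correlated at 0.363 to 0.837 for all 12 same-pool pairs and at −0.653 to 0.340 for pairs from different pools.

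Members and lists were chosen with earlier results of these data known. By a fixed rule, values in every gradient are given for genes called over all fractions, the 2 most positive and 2 most negative changes per comparison, the 3 highest and 3 lowest heavy-to-monosome ratios, 2 paralog pairs and called ratio changes. The centre of sedimentation was computed for every member and for genes averaging at least 100 counts a gradient. Coordinates are 1-based. Apart from the whole-profile test, which rests on single fraction libraries, p-values measure the spread between gradients, which the study's methods call biological replicates. Where the gradient was a term, this is the spread of class differences between gradients.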

Additional observations from a re-analysis of the deposited data

Results flagged for a closer look

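In 204 sets of 4 gradients examined, 10 held a gradient whose gap to the nearest other was above Dixon's critical value. Chance gives about 1 in 20, so the number found is near that of chance, and the gradients are listed as a description. For Srp14 the LUL17 gradient had 82.8 CPM in LPS+ET (others 137 to 146) and 78.6 CPM in LPS+ET+KU (others 137 to 139). Srp72 had 216 CPM in the LPS+ET gradient of LUL15 (others 177 to 181), and Tmed2 had 192 CPM in that of LUL17 (others 127 to 137). Srprb had 30.1 CPM in the LPS+ET gradient of LUL16, where the other LPS+ET gradients had 71.0 to 78.4 CPM.

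The remaining 5 concern the share of a gene in heavy fractions, all in pool LUL16. In its LPS+ET gradient Ost4 had 33.1% (others 9.55% to 12.2%), Sec61a1 61.2% (others 70.9% to 72.2%) and Sec11a 42.4% (others 58.1% to 60.03%). In its LPS gradient Spcs1 had 30.3% (others 45.2% to 48.0%) and Dad1 31.9% (others 39.5% to 41.1%). The heavy-to-monosome ratio differed between LPS+ET and LPS for Stt3b by −0.81 and for Ost4 by 1.07 on the log2 scale, in the test of that difference.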

How the results depend on the processing

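Of 459 values of named genes under alternatives, 392 kept their direction and side of the threshold, 57 fell short of it, 10 newly passed it and 0 changed direction. Counts of called genes moved more. For LPS+ET against LPS over all fractions (1 gene) the count was 3 at 0.05, 4 with the pool as a replicate block, 2 with DESeq2, 0 without a filter and 0 to 2 without 1 gradient. For LPS+ET+KU against LPS (2 genes) it was 4 at 0.05, 7 with the block, 4 with DESeq2, 1 without a filter, 1 with only the 8 gradients compared, 1 with equal weight and 0 to 2 without 1 gradient. For LPS+ET+KU against LPS+ET (0 genes) the block gave 1. In monosomes the block gave 6 and DESeq2 5 for LPS+ET against LPS (2 genes; 1 to 2 without 1 gradient), and 6 and 4 for LPS+ET+KU against LPS (2 genes). In light polysomes the block gave 3, 2 and 9 in the 3 comparisons (1, 0 and 1 genes), DESeq2 gave 2 for each comparison with LPS, and leaving out 1 gradient gave 1 to 2 and 0 to 2 there. In heavy polysomes DESeq2 gave 2 for LPS+ET against LPS (0 genes; 0 to 1 without 1 gradient), and for LPS+ET+KU against LPS (1 gene) the block gave 3, no filter 0 and leaving out 1 gradient 0 to 1. The change of ratio in LPS+ET (2 genes) gave 0 with no replicate block, 0 on the equal-weight heavy share and 0 to 6 without 1 gradient, and DESeq2 gave 2 for LPS+ET+KU against LPS+ET (0 genes). The whole profile (3 and 1 genes) gave 0 and 0 for the interaction alone, 8 and 7 with the block, and 1 to 6 and 0 to 6 without 1 gradient. The ratio of Sec11c to Sec11a in LPS+ET against LPS turned from 0.16 to −0.043 with equal weight (−0.060 to 0.49 without 1 gradient), and that of Stt3b to Stt3a in LPS+ET+KU against LPS from 0.03 to −0.14 (−0.13 to 0.14). The causes were not tested. Over all genes the block called 3403, 811 and 3589 genes in place of 1618, 58 and 1361 in LPS+ET against LPS, LPS+ET+KU against LPS+ET and LPS+ET+KU against LPS, and DESeq2 2344, 413 and 2319.

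Sec61g at 3.00 CPM and Srpr at 10.5 CPM are limited by depth, and Sec61g was not tested in monosomes or heavy polysomes.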

Other observations

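Promoter windows of 250 bases before to 50 after the gene start, from RefSeq, matched 26 of the 34 genes and were searched on both strands. The ER stress element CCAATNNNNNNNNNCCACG was found for 0 of 26 genes, against 0.137% of all 27025 genes with a window and 0.168% of genes tested here. The core TGACGTGG was found for 0 of 26, against 0.714% and 1.06%. The single parts of the ER stress element were common. CCAAT was found for 14 of 26 genes (53.8%, against 43.5% for genes tested here) and CCACG for 18 of 26 (69.2%, against 52.2%). CCAAT and CCACG are both parts of the longer element, and a match is a description of letters.

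Of the ER stress genes, Herpud1, which helps to degrade misfolded ER proteins, was at 678 ± 99.3 CPM in LPS (SD, n = 4), 411 ± 119 with etoposide and 587 ± 100 with etoposide and KU55933 (log2 −0.84 for LPS+ET against LPS, edgeR adjusted p = 0.016). Ddit3, a transcription factor of prolonged ER stress, was at 39.8 ± 0.92, 31.5 ± 16.0 and 112 ± 81.9 CPM in the same order, with an adjusted p of 0.041 between the treatments with etoposide. Dnajb9 and Hsp90b1, a co-chaperone and a chaperone of the ER lumen, did not pass in any of the 3 comparisons.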
